A study of Homo sapiens with 36 samples.

Results

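This report sets the response of MDA-MB-231 cells to 24 h of carfilzomib beside an acute stress state seen in the same line at 8 h, and sorts genes into those that lasted, faded or arose. It rests on 12 of the 36 libraries of the series. The late response is carfilzomib (10 nM, 24 h, 3 libraries) minus DMSO (24 h, 3 libraries), with groups taken from the labels. The acute state is a difference inside the 8 h carfilzomib set, whose libraries were chosen by 2 measured values and not by their labels. Libraries with PER3 at 4 CPM (counts scaled to a common library size) or more were split at 4000 CPM of HSPA1A. The 3 above that level, called HSPA1A-high here, are the libraries labelled combination 2, combination 3 and DMSO 1. The 3 below it, called HSPA1A-low here, are those labelled SHP1705 2, SHP1705 3 and carfilzomib 1. Because measured values chose these 6 libraries, their difference is given as a description, with no test, error or p-value. Time, set and labelled treatment, SHP1705 included, differ together between the late and acute values and cannot be told apart. Lasting, fading and arising therefore name patterns across the comparisons, not a time course of 1 drug response.

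MDA-MB-231 is a mesenchymal-like, triple-negative human breast cancer line. Carfilzomib is an irreversible inhibitor of the proteasome, the protease that degrades ubiquitin-tagged proteins. SHP1705 (10 µM) stabilizes cryptochrome, a clock repressor, and the combination is SHP1705 with carfilzomib. All drugs, and the DMSO given to controls, were added in the same volume. A further set used MG132 (100 nM, 8 h), a reversible proteasome inhibitor, with the same 4 kinds of group, and served here as an acute response grouped by label. Each group of each set had 3 libraries. The design text mentions independent experiments without tying them to the replicate numbers, so p-values measure the spread between libraries, which may be technical.

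When the proteasome is blocked, misfolded proteins pile up and several programmes respond. HSF1 binds heat shock elements and drives cytosolic chaperones, NFE2L1 drives the genes of the proteasome's own subunits, NFE2L2 (NRF2) drives antioxidant genes through antioxidant response elements, and the unfolded protein and integrated stress responses act through XBP1 and ATF4. These programmes are known to differ in how long they last.

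The 8 h labels and readouts disagree, which touches every 8 h value below. Among the 6 libraries used, HSPA1A stood at 12020, 15052 and 14559 CPM in those labelled combination 2, combination 3 and DMSO 1, and at 705, 693 and 792 CPM in those labelled SHP1705 2, SHP1705 3 and carfilzomib 1. PER3 stood at 7.69, 8.20 and 8.19 CPM in the HSPA1A-high libraries and at 9.62, 7.91 and 6.78 CPM in the HSPA1A-low ones. Thus one library labelled as vehicle was high and one labelled carfilzomib was low. The other 6 libraries, all with PER3 at 2.25 CPM or less, split in the same way, with DMSO 2, DMSO 3 and SHP1705 1 high and carfilzomib 2, carfilzomib 3 and combination 1 low. What treatment each 8 h library had was not inferred here.

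**Figure D1:**
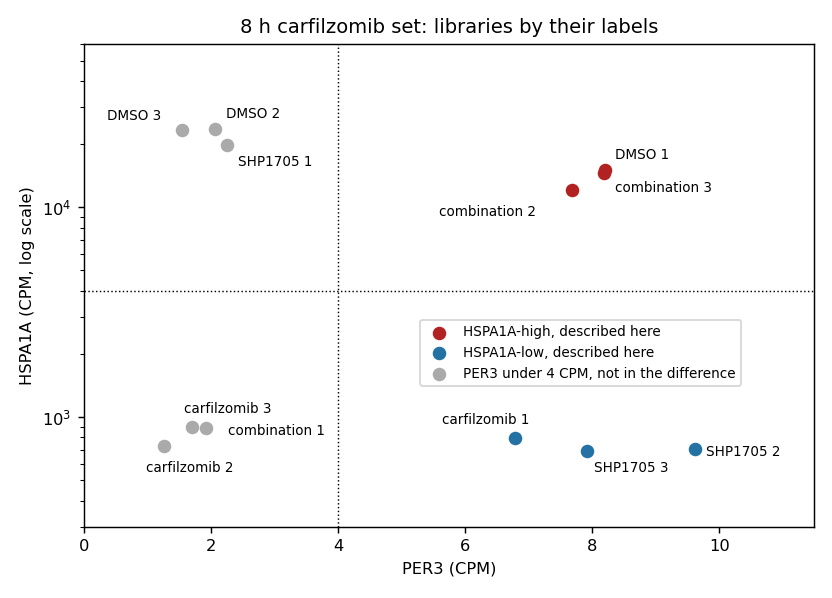
PER3 (CPM, horizontal) and HSPA1A (CPM, log scale, vertical) in the 12 libraries of the 8 h carfilzomib set, each point 1 library under its own label. Dotted lines mark 4 and 4000 CPM; the 3 red points (12020 to 15052 CPM of HSPA1A) and the 3 blue points (693 to 792 CPM) form the described difference.

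The 12 libraries held 17800000 to 34000000 counts. In the line check, VIM, AXL and CD44 were abundant, with VIM at 767 to 868 CPM after carfilzomib and 911 to 946 CPM in DMSO, while ESR1 and PGR stayed at or under 0.160 and 0.268 CPM in all 24 carfilzomib-set libraries. GATA3, a luminal gene also taken as low in this line, was present at 14.2 to 17.1 CPM after carfilzomib and 12.9 to 15.2 CPM in DMSO at 24 h. Its 8 h levels were 5.78 to 6.37 CPM in HSPA1A-high and 6.62 to 7.38 CPM in HSPA1A-low libraries. The 11 fibroblast markers summed to 19.2 to 25.7 CPM after carfilzomib and 19.5 to 20.1 CPM in DMSO, and to 12.7 to 18.7 CPM in HSPA1A-high against 12.7 to 16.4 CPM in HSPA1A-low libraries. The 10 luminal epithelial markers, mostly KRT8 and KRT18, summed to 946 to 977 CPM in HSPA1A-high and 1037 to 1265 CPM in HSPA1A-low libraries, so this sum moved with the 8 h grouping and its part in the results was not tested. The library labelled combination 3 held ALB at 3.85 CPM, against 0.0384 and 0.0589 CPM in the other HSPA1A-high libraries. The 6 liver markers, mostly SERPINA1, summed to 25.5 to 27.1 CPM with carfilzomib and 31.7 to 42.8 CPM with DMSO at 24 h, and the part of this in the results was not tested. In bulk RNA, fewer cells of a type and less RNA per cell cannot be told apart.

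Of 16183 genes tested at 24 h, 10.1% were called higher and 11.4% lower with carfilzomib (1631 and 1841 genes, edgeR's quasi-likelihood test, adjusted p under 0.05). At 8 h, 15084 genes passed the low-count filter in both tables. Of these, 255 (1.69%) were at least 2-fold higher, and 316 (2.09%) at least 2-fold lower, in HSPA1A-high libraries with no overlap between the 3 libraries on each side. Of the 255 genes higher in the acute state, 144 were called higher with carfilzomib and 3 were called lower. In the median gene the 24 h log2 value was 47.9% of the 8 h one. Of the 316 lower genes, 47 were called lower and 3 higher, and the median share was 12.2%. Because these genes were picked for a large 8 h difference, the choice itself can lower the shares, by an amount that was not tested. The 24 h and 8 h libraries are separate, so a share does not follow the same cells over time. Median log2 fold changes with carfilzomib were 0.63 and -0.18 in these sets, beside 8 h medians of 1.28 and -1.23. Across all 15084 genes the late and acute log2 values had a Pearson correlation of 0.34, a description over genes that share libraries.

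Genes were then classed. Lasting genes had the 2-fold 8 h difference and a carfilzomib call in the same direction with a log2 size of at least 0.5. There were 121 lasting genes higher and 20 lower. Fading genes had the same 8 h difference, no call at 24 h and a log2 size under 0.25 there, and numbered 41 higher and 114 lower. Arising genes were called at 24 h with a log2 size of at least 0.5 and differed by less than 0.25 at 8 h, and numbered 81 higher and 96 lower. Only CALHM3 and LOC105376367 were called the opposite way at 24 h with that size, and both had under 5 CPM in each of the 12 libraries. The remaining 93 higher and 180 lower genes of the 8 h difference fell between classes. A gene not called at 24 h is not shown to be unchanged, and only 31 of the 114 fading lower genes averaged 5 CPM or more at 24 h. Just inside the 8 h threshold stood ATF3 (log2 1.0008), ORC3 (1.0018) and DBP (-1.0035), and just outside it stood DDIT4 (-0.99864), PRDM8 (-0.99725) and SFXN5 (0.99592).

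**Figure D2:**
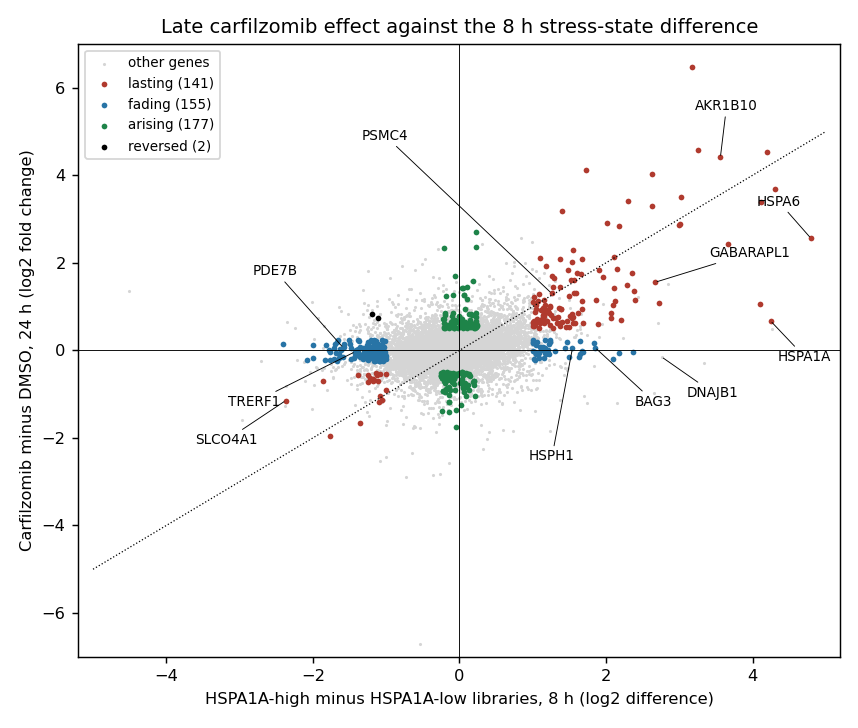
Each point is 1 of 15084 genes; the vertical axis is the carfilzomib minus DMSO log2 fold change at 24 h and the horizontal axis the HSPA1A-high minus HSPA1A-low log2 difference at 8 h, with equality dotted. The 121 lasting higher genes spread along the diagonal, and the fading genes, 114 of them lower at 8 h, lie on the horizontal zero line.

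Genes of the proteasome's own subunits were raised at both times. Of 34 subunit genes, 33 were called higher with carfilzomib at 24 h and none lower, with a median log2 fold change of 0.79, beside 0.62 at 8 h and a median over all genes of 0.00 and -0.02. PSMC4 (chr19:39971165-39981764, GRCh38.p14), an ATPase of the base of the regulatory particle, had 488, 500 and 432 CPM with carfilzomib against 189, 187 and 199 CPM with DMSO. At 8 h it had 371, 407 and 392 CPM in HSPA1A-high against 152, 164 and 174 CPM in HSPA1A-low libraries. The groups stayed apart at both times, with log2 values of 1.31 ± 0.05 (SE, adjusted p = 2.6e-14) at 24 h and 1.26 at 8 h. PSMB2, a beta subunit of the core, had 434, 437 and 443 CPM with carfilzomib and 217, 213 and 214 CPM with DMSO. Its 8 h values were 426, 436 and 435 CPM in HSPA1A-high and 205, 206 and 215 CPM in HSPA1A-low libraries, so its levels nearly matched across the 2 comparisons. PSMB5, the subunit that carfilzomib binds, rose by 0.63 ± 0.05 on the log2 scale at 24 h and stood 0.56 higher at 8 h.

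Lasting by rule were 7 subunits, PSMC4, PSMC6, PSMB2, PSMD3, PSMD11, PSMD12 and PSMD14, while the others missed the 2-fold 8 h threshold. Several had a larger log2 value in the 24 h comparison than in the 8 h one, with PSMD13 at 1.14 and 0.88, PSMB3 at 1.10 and 0.70 and PSMB6 at 0.81 and 0.44 (log2, 24 h and then 8 h). PSMD9 was the exception at -0.05 at both times. Outside the particle, POMP, which assembles the core, rose by 0.78 and the activator PSME4 by 0.74, whereas the interferon-inducible activator PSME2 fell by 0.33, a log2 fold change of -0.33 ± 0.05 (adjusted p = 3.2e-05). Of the 12 assembly and activator genes, 3 were called higher and 2 lower, beside 10.1% and 11.4% of all genes tested.

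**Figure D3:**
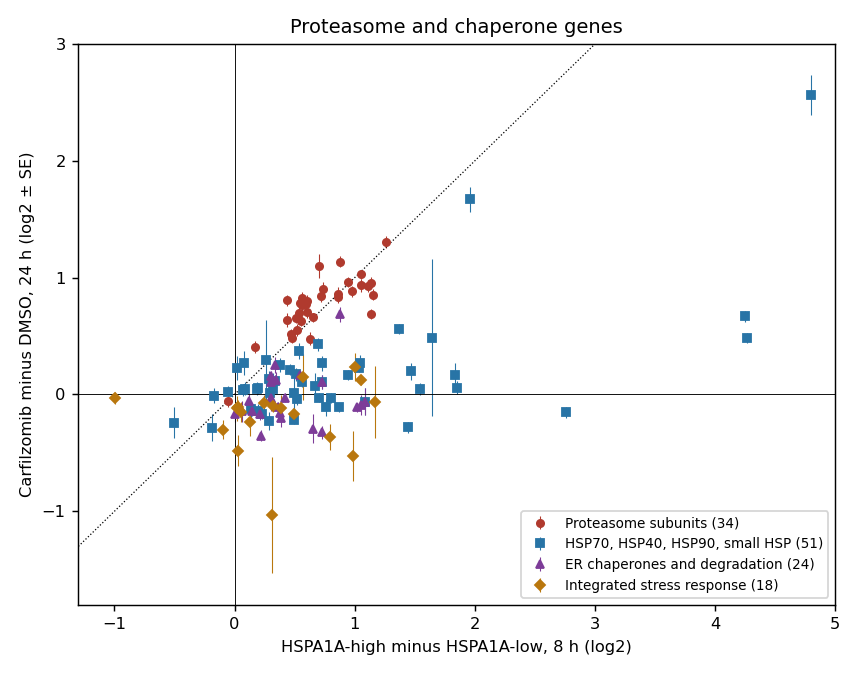
Carfilzomib minus DMSO at 24 h (log2 ± SE of edgeR's fit, vertical) against HSPA1A-high minus HSPA1A-low at 8 h (log2, horizontal) for proteasome subunits (34), cytosolic chaperone lists (51), endoplasmic reticulum genes (24) and integrated stress response genes (18). Proteasome genes (circles) lie near the dotted line of equality, while most chaperone genes (squares), such as DNAJB1 at -0.15 and 2.76, lie well under it.

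By list medians, cytosolic chaperone genes differed by less at 24 h than at 8 h. HSPA1A chose the 8 h libraries, so the 8 h values of genes that move with it can be set in part by that choice. How much of each gap comes from the choice was not tested. HSPA1A (chr6:31815543-31817942), the inducible HSP70, had 1126, 1159 and 1046 CPM with carfilzomib against 715, 690 and 691 CPM with DMSO at 24 h. That is a log2 fold change of 0.67 ± 0.05 (adjusted p = 2.3e-10), beside the 4.25 by which the HSPA1A-high libraries stood above the low ones, a difference fixed by their choice. HSPA1B, whose reads can be confused with those of its near-identical copy HSPA1A, gave 0.49 and 4.27. HSPA6, a strictly stress-inducible HSP70, had 12.7, 10.7 and 9.66 CPM with carfilzomib and 1.91, 1.79 and 1.87 CPM with DMSO, a log2 fold change of 2.57 ± 0.17, beside 4.79 at 8 h; reads shared with HSPA7 make it less certain.

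DNAJB1 (chr19:14514769-14560391), the HSP40 that feeds clients to HSP70, had all 3 HSPA1A-high libraries far above the other 9 libraries. It had 272, 258 and 243 CPM with carfilzomib and 290, 285 and 286 CPM with DMSO at 24 h, against 1716, 2107 and 1976 CPM in HSPA1A-high and 275, 285 and 295 CPM in HSPA1A-low libraries. It fell at 24 h (log2 fold change -0.15 ± 0.04, adjusted p = 0.016) and stood 2.76 higher at 8 h. HSPA8, the constitutive HSP70, likewise fell at 24 h, with 1244, 1297 and 1482 CPM with carfilzomib and 1618, 1628 and 1639 CPM with DMSO (log2 -0.28 ± 0.05, adjusted p = 0.0002), while it had 7013, 7157 and 7111 CPM in HSPA1A-high and 2486, 2718 and 2634 CPM in HSPA1A-low libraries.

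BAG3, the co-chaperone that routes HSP70 clients to autophagy, was a fading gene with 118, 121 and 123 CPM with carfilzomib and 114, 115 and 117 CPM with DMSO. Its 8 h levels were 393, 468 and 424 CPM in HSPA1A-high and 122, 114 and 119 CPM in HSPA1A-low libraries, so all values but the HSPA1A-high ones lay close together. HSPH1, an exchange factor of HSP70, DNAJB4 and CHORDC1, an HSP90 co-chaperone, were fading too, with log2 fold changes of 0.04, 0.17 and 0.20 at 24 h beside 1.54, 1.84 and 1.47 at 8 h. HSP90AA1, the inducible HSP90, lasted in part, with 2942, 2778 and 3177 CPM with carfilzomib and 1993, 1982 and 2071 CPM with DMSO (log2 0.56 ± 0.04), beside 1.37 at 8 h. HSPB8, a small chaperone that works with BAG3, lasted at 1.67 ± 0.10 beside 1.96.

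By list, 6 of 11 HSP70 and HSP110 genes were called higher at 24 h and 1 lower, with medians of 0.27 at 24 h and 1.04 at 8 h. None of 13 HSP40 genes was called higher and DNAJB1 alone was called lower, with medians of 0.01 and 0.73. Of 16 genes of the HSP90 system, 6 were called higher, with medians of 0.09 and 0.52. Of 11 small heat shock protein and BAG genes, 2 were called higher and 3 lower, with medians of -0.01 and 0.32. Of 8 subunits of the chaperonin TRiC, which folds actin and tubulin, 5 were called higher, with medians of 0.16 and 0.29. The choice of the 8 h libraries by HSPA1A bears on all these 8 h medians.

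**Figure D4:**
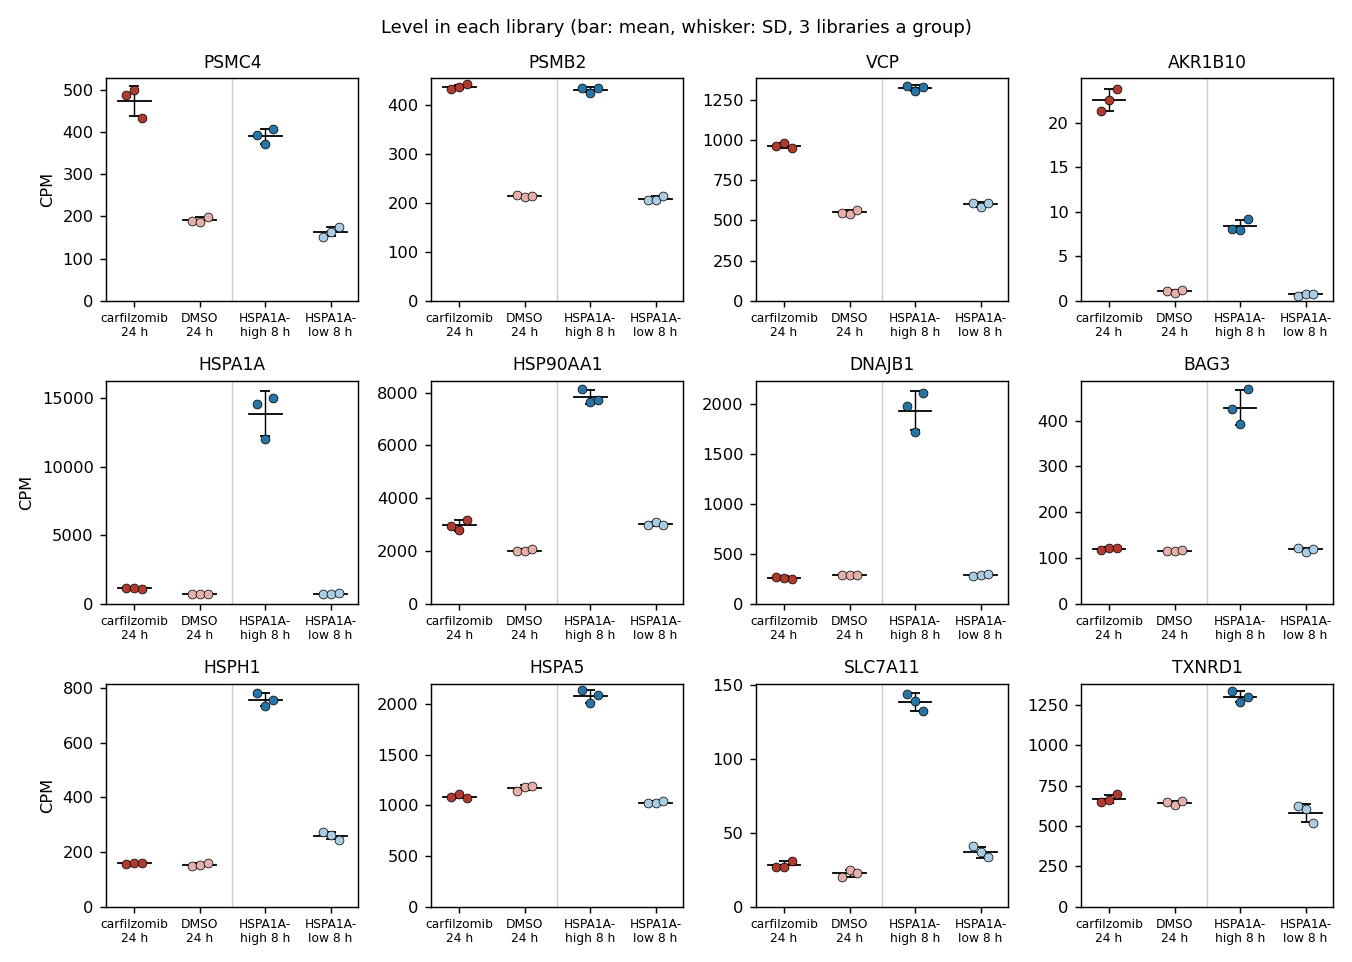
Levels (CPM) of 12 genes in carfilzomib and DMSO libraries at 24 h (left pair) and in HSPA1A-high and HSPA1A-low libraries at 8 h (right pair); points are libraries, horizontal lines means and whiskers SD (n = 3 each). PSMC4, PSMB2, VCP and AKR1B10 are raised in both pairs, while BAG3, HSPH1 and TXNRD1 are fading by the class rule, as in the 393 to 468 CPM of BAG3 in HSPA1A-high libraries.

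Promoter windows are shown for genes of different courses that hold the same motif. They come from RefSeq (GRCh38.p14), 5′ to 3′ on the gene's strand, within the 250 bases before the start, with motif matches in capitals. A pair of motifs was searched on both strands, a heat shock element spelled GAANNTTCNNGAA (TTCNNGAANNTTC on the other strand) and an antioxidant response element core spelled TGACNNNGC (GCNNNGTCA). Overlapping heat shock matches were merged in capitals. The first 3 windows hold heat shock elements and belong to a fading gene (CHORDC1), a gene called lower late (HSPA8) and a lasting gene (HSPA6). They lie at chr11:90223057-90223139, chr11:123062149-123062386 and chr1:161524436-161524508, the last on the plus strand and the others on the minus strand.
CHORDC1: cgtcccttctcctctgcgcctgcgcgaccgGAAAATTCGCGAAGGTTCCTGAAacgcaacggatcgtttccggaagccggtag
HSPA8: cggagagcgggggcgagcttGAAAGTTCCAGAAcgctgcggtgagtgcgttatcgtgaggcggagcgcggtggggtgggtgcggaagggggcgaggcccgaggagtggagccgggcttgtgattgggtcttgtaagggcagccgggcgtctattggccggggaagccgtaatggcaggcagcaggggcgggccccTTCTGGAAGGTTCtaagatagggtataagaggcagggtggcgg
HSPA6: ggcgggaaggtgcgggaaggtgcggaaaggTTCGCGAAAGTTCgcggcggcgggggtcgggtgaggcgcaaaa
The same element thus stood before 3 genes, each of a different course. It was found in 0.439% of all 27305 promoters of the table and in 2 of 10 HSP70 and HSP110 promoters. It was found in 1 of 94 promoters of lasting higher, 1 of 26 of fading higher, 1 of 13 of HSP40 and 1 of 13 of HSP90-system genes. The counts were 0 of 12 for lasting lower, 0 of 77 for fading lower, 0 of 60 for arising higher and 0 of 57 for arising lower genes. A match is a description and says nothing of a factor's binding.

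The antioxidant element was found in 3013 of all 27305 promoters and in 12.2% of those of the genes kept, in 22 of 94 promoters of lasting higher genes (23.4%), in 5 of 26 of fading higher genes (19.2%) and in 5 of 29 of proteasome subunits (17.2%). It was also found in 3 of 12 promoters of lasting lower genes, 8 of 77 of fading lower, 7 of 60 of arising higher, 11 of 57 of arising lower and 5 of 13 of HSP90-system genes, so it was not limited to genes that were raised or that lasted. Examples are PSMD12 (chr17:67366704-67366772, minus strand), PSMD3 (chr17:39980740-39980806, plus), VCP (chr9:35072776-35072844, minus), GCLM (chr1:93909431-93909494, minus) and the fading TXNRD1 (chr12:104215650-104215718, plus).
PSMD12: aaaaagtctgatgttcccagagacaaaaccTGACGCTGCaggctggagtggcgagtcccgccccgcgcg
PSMD3: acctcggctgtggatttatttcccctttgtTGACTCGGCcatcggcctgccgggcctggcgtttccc
VCP: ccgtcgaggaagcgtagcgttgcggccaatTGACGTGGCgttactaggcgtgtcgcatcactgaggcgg
GCLM: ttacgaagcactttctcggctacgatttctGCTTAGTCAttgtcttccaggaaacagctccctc
TXNRD1: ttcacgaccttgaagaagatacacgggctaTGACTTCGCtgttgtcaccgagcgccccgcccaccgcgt
PSMD12, PSMD3, VCP and GCLM lasted and TXNRD1 faded, with matches to the same motif.

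NRF2 targets were raised in part. Of 35 target genes, 17 were called higher at 24 h and 4 lower, with medians of 0.22 at 24 h and 0.49 at 8 h, and 6 were lasting, 1 was fading and the others were in neither class. AKR1B10 (chr7:134527567-134541412), an aldo-keto reductase, had 21.3, 22.5 and 23.8 CPM with carfilzomib and 1.09, 0.916 and 1.18 CPM with DMSO. At 8 h it had 7.99, 9.19 and 8.07 CPM in HSPA1A-high and 0.562, 0.803 and 0.771 CPM in HSPA1A-low libraries. Its log2 values were 4.41 ± 0.13 (adjusted p = 3.3e-16) at 24 h and 3.56 at 8 h, so it was among the 41 of 255 genes higher in the acute state whose late log2 value was the larger. GCLM, a subunit of the enzyme that starts glutathione synthesis, had 105, 96.9 and 127 CPM with carfilzomib and 59.3, 63.4 and 60.8 CPM with DMSO, a log2 value of 0.84 ± 0.07 beside 1.54. GSR, which recycles glutathione (0.80 and 1.51), SRXN1, which repairs peroxiredoxins (0.61 and 1.90), and HMOX1, which degrades heme (0.63 and 1.68), also lasted at a lower size.

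TXNRD1, the thioredoxin reductase, faded, with 648, 664 and 696 CPM with carfilzomib and 647, 632 and 655 CPM with DMSO, against 1268, 1301 and 1339 CPM in HSPA1A-high and 623, 603 and 518 CPM in HSPA1A-low libraries. SLC7A11, the cystine importer, had log2 values of 0.32 ± 0.11 (adjusted p = 0.041) at 24 h and 1.91 at 8 h. NQO1, a quinone reductase, went the other way from most of the list, with 169, 162 and 191 CPM with carfilzomib and 227, 214 and 226 CPM with DMSO (log2 -0.35 ± 0.06), beside -0.04 at 8 h. BLVRB, which reduces biliverdin and flavins, was larger late, with 148, 146 and 129 CPM with carfilzomib and 62.4, 62.4 and 62.7 CPM with DMSO (log2 1.18 ± 0.05), beside 0.40 at 8 h.

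Genes of ubiquitin handling, autophagy and the lysosome were called higher more often than lower at 24 h. VCP, the segregase that extracts ubiquitinated proteins, had 964, 984 and 951 CPM with carfilzomib and 548, 538 and 567 CPM with DMSO, against 1303, 1332 and 1339 CPM in HSPA1A-high and 611, 581 and 608 CPM in HSPA1A-low libraries. Its partners UFD1 (0.97 and 0.79) and NSFL1C (0.81 and 0.96) and the proteasome's deubiquitinase USP14 (0.74 and 0.87) rose at 24 h with similar 8 h values. UBB, a polyubiquitin gene, fell at 24 h, with 1218, 1190 and 1022 CPM with carfilzomib and 1606, 1524 and 1638 CPM with DMSO (log2 -0.48 ± 0.06), beside 0.45 at 8 h. Of the 24 genes of this list, 11 were called higher and 4 lower.

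GABARAPL1, which sits on autophagosome membranes, had 64.8, 52.7 and 58.2 CPM with carfilzomib and 19.9, 18.4 and 21.3 CPM with DMSO, a log2 value of 1.56 ± 0.08 beside 2.67. SQSTM1 (p62), a receptor for ubiquitinated cargo, had 779, 779 and 733 CPM with carfilzomib and 467, 453 and 460 CPM with DMSO, a log2 value of 0.73 ± 0.04 beside 1.54. GLA, a lysosomal galactosidase, had 80.8, 76.9 and 88.6 CPM with carfilzomib and 24.7, 22.7 and 25.8 CPM with DMSO, and its log2 values of 1.75 ± 0.07 and 1.66 were close. Of 27 autophagy genes, 8 were called higher and 0 lower at 24 h; of 27 lysosome genes, 11 were called higher and 2 lower.

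By list median and by class, endoplasmic reticulum and integrated stress response genes did not last. Of 24 endoplasmic reticulum genes, 4 were called higher and 6 lower at 24 h (median -0.08), while the 8 h median was 0.35. Over all genes tested, 10.1% were called higher and 11.4% lower. Lasting by rule were 0 of these 24 and 0 of the 18 integrated stress response genes. HSPA5 (BiP), the main chaperone of that compartment, had 1079, 1108 and 1076 CPM with carfilzomib and 1146, 1184 and 1191 CPM with DMSO, against 2013, 2089 and 2136 CPM in HSPA1A-high and 1019, 1019 and 1045 CPM in HSPA1A-low libraries. It fell at 24 h (log2 -0.11 ± 0.04, adjusted p = 0.041) and stood 1.02 higher at 8 h. HERPUD1 (-0.09 and 1.05) and DNAJB9 (-0.06 and 1.09) were fading, and XBP1, a transcription factor of the unfolded protein response, fell (-0.32 ± 0.06) with 0.73 at 8 h. SELENOK, a selenoprotein of that compartment's degradation pathway, had the list's largest 24 h value at 0.69 ± 0.07 beside 0.88, and was 1 of the 4 called higher.

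Of 18 integrated stress response genes, 1 was called higher and 4 lower at 24 h (median -0.11), with a median of 0.31 at 8 h. ATF4, its central transcription factor, had 173, 176 and 175 CPM with carfilzomib and 190, 200 and 200 CPM with DMSO, against 376, 401 and 381 CPM in HSPA1A-high and 246, 284 and 290 CPM in HSPA1A-low libraries. Its log2 value was -0.17 ± 0.05 (adjusted p = 0.0089) at 24 h and 0.50 at 8 h. SESN2, a brake on growth signalling, fell (-0.36 ± 0.11) beside 0.79, and ATF3 was fading at 0.23 ± 0.12 beside 1.00. CTH, a transsulfuration enzyme, was the one lasting gene among 18 of amino acid synthesis and transport (0.62 ± 0.12 and 1.37).

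**Figure D5:**
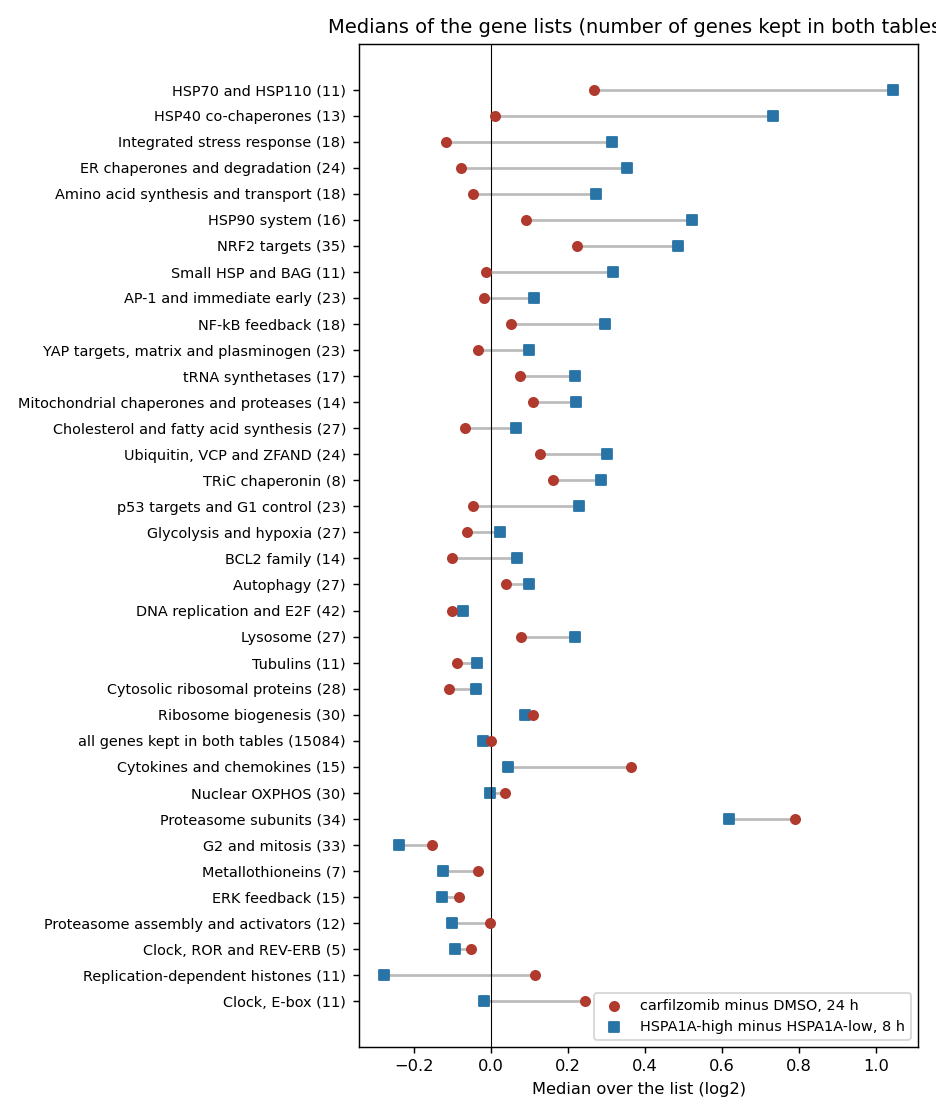
Medians of the gene lists (log2) for carfilzomib minus DMSO at 24 h (circles) and HSPA1A-high minus HSPA1A-low at 8 h (squares), lists ordered by the median of the 24 h value minus the 8 h value, most negative at the top, with the number of genes beside each name. The HSP70 and HSP110 list opens the plot (0.27 and 1.04) and holds HSPA1A, which chose the 8 h libraries. The proteasome subunit medians are 0.79 and 0.62.

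Outside these programmes, B4GALNT1, a ganglioside-synthesizing enzyme, lasted, with 22.4, 23.6 and 21.4 CPM with carfilzomib and 3.74, 2.96 and 2.56 CPM with DMSO (log2 2.86 ± 0.13), against 28.1, 29.6 and 29.0 CPM in HSPA1A-high and 3.41, 3.63 and 3.81 CPM in HSPA1A-low libraries. MLLT11 (2.84 and 2.17) and SEL1L3 (1.83 and 1.90) followed the same course. Among the 20 lasting lower genes, SLCO4A1, an organic anion transporter, had 12, 10.3 and 8.74 CPM with carfilzomib and 25.1, 22.2 and 21.3 CPM with DMSO, against 4.30, 3.43 and 4.18 CPM in HSPA1A-high and 19.0, 19.9 and 22.6 CPM in HSPA1A-low libraries. Its log2 values were -1.15 ± 0.10 and -2.37. SMAD6, an inhibitor of BMP signalling (-0.73 and -1.24), also lasted at a lower size.

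Of the 316 genes lower in the acute state, 114 faded. TRERF1, a transcriptional regulator, had 111, 112 and 105 CPM with carfilzomib and 113, 113 and 109 CPM with DMSO, against 17.2, 14.5 and 14.3 CPM in HSPA1A-high and 45.4, 40.6 and 38.1 CPM in HSPA1A-low libraries. The cyclic nucleotide phosphodiesterases PDE7B (0.07 and -1.59) and PDE4B (0.01 and -1.78) followed it, as did the forkhead factor FOXO6 (-0.17 and -1.43) and CCDC9B (-0.04 and -1.38). FOXO6 and PDE4B were low at 8 h, with means of 0.86 and 0.97 CPM in HSPA1A-high and 2.35 and 3.37 CPM in HSPA1A-low libraries. FOXO6 averaged 17.4 CPM with carfilzomib and 19.7 CPM with DMSO at 24 h, so its level also differed between the sets. The levels of TRERF1, PDE7B, CCDC9B and PDE4B differed between the sets too. Means with DMSO at 24 h and in HSPA1A-low libraries were 27.9 and 8.41 CPM for PDE7B, 136.5 and 66.2 CPM for CCDC9B, and 5.66 and 3.37 CPM for PDE4B. Fading here therefore does not mean a return to an 8 h level. Among the higher genes that faded outside the stress lists were DEDD2, a death-effector-domain protein (-0.01 and 1.68), NOCT, which encodes nocturnin (0.00 and 1.20) and MXD1, a partner of MAX (-0.09 and 1.22).

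Arising genes had median log2 fold changes of 0.62 for the 81 higher and -0.61 for the 96 lower. COL13A1, a transmembrane collagen, had 64.0, 72.0 and 65.6 CPM with carfilzomib and 127, 125 and 117 CPM with DMSO (log2 -0.87 ± 0.06, adjusted p = 2.9e-10), against 105, 102 and 102 CPM in HSPA1A-high and 111, 117 and 124 CPM in HSPA1A-low libraries. CDH4, a cadherin (-0.71 ± 0.07 and -0.10), SEMA6B, a semaphorin (-0.79 ± 0.10 and 0.20), and MUC1, a membrane mucin (-0.83 ± 0.11 and 0.09), fell at 24 h with small 8 h values. MUC1 was low at 8 h, with means of 3.80 CPM in HSPA1A-high and 3.57 CPM in HSPA1A-low libraries. The immediate early gene EGR1 (-0.70 ± 0.15 and 0.21) and JUND (-0.61 ± 0.12 and -0.22), a subunit of AP-1, also fell at 24 h with small 8 h values. EGR1 averaged 5.70 CPM with carfilzomib and 9.23 CPM with DMSO. In the combination against SHP1705 at 24 h neither EGR1 (-0.23) nor JUND (-0.06) was called. COL13A1 (-1.01), CDH4 (-1.06), SEMA6B (-0.67) and MUC1 (-0.52) were called lower there. Among higher genes, NDRG3 had 77.5, 88.6 and 95.3 CPM with carfilzomib and 55.4, 52.2 and 53.6 CPM with DMSO (log2 0.70 ± 0.07), beside 0.14 at 8 h. ALG14, an enzyme of N-glycan assembly (0.81 ± 0.11 and 0.17), NDUFA4, a subunit of cytochrome oxidase (0.67 ± 0.06 and 0.23), and the cytokine IL6 (0.86 ± 0.19 and -0.20, at 5.34 to 7.23 CPM with carfilzomib and 2.83 to 4.29 CPM with DMSO) rose at 24 h. The 8 h groups did not overlap for NDRG3, ALG14, NDUFA4 and COL13A1, in the late direction, and for EGR1 in the opposite one. Of all 15084 genes, 3540 were higher and 3595 lower without overlap. In SHP1705 plus MG132 against DMSO at 8 h, IL6 (log2 1.26) and NDUFA4 (0.40) were called higher and COL13A1 (-0.24) lower. NDRG3 (0.03) and ALG14 (0.01) were not called there.

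Proliferation and translation lists had small medians. Of 33 genes of G2 and mitosis, 15 were called lower and 0 higher at 24 h, with medians of -0.15 at 24 h and -0.24 at 8 h. BIRC5 (survivin), which guards chromosome segregation, had 145, 155 and 143 CPM with carfilzomib and 194, 189 and 202 CPM with DMSO. Of 28 ribosomal protein genes, 13 were called lower and 0 higher, with medians of -0.11 and -0.04. CDKN1A (p21), a cell cycle inhibitor, fell at 24 h, with 136, 138 and 126 CPM with carfilzomib and 179, 179 and 178 CPM with DMSO (log2 -0.43 ± 0.05, adjusted p = 3.9e-07), while it stood 0.67 higher at 8 h, with 230, 260 and 239 CPM in HSPA1A-high and 148, 149 and 160 CPM in HSPA1A-low libraries. Of 23 p53 target and G1 genes, 5 were called higher and 2 lower, beside 10.1% and 11.4% of all genes tested.

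The classes were then read in contrasts between other libraries. The combination against SHP1705 alone at 24 h gives a carfilzomib effect that shares no library with the one above, although both come from 1 fit and share its filter and spread, with 11.8% of genes called higher and 12.4% lower. Of the 121 lasting higher genes 103 were called higher there and 0 lower, and of the 20 lasting lower genes 11 were called lower and 0 higher. Of the fading genes, 5 of 41 higher ones were called higher and 4 lower, shares close to those of all genes, and 6 of 114 lower ones were called lower and 5 higher. Arising genes were called in their direction in 51 of 81 and 58 of 96 cases, with none opposite. The abundant fading chaperones did not all match, since HSPH1 fell (-0.20 ± 0.05) and BAG3 rose (0.19 ± 0.05). HSPA8, not a fading gene, was called lower there too (-0.88 ± 0.05). Proteasome subunits were called higher in 33 of 34 cases, with PSMC4 at 1.58 ± 0.05.

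An acute response grouped by label came from the MG132 set at 8 h, as SHP1705 plus MG132 against DMSO, with 29.2% of genes called higher and 29.7% lower. There 109 of 117 tested lasting higher genes, 19 of 20 lasting lower, 33 of 40 fading higher and 74 of 110 fading lower genes were called in the direction of the 8 h difference. Of arising genes, 23 of 81 and 39 of 96 were called in their late direction and 13 and 9 in the opposite one. The combination libraries of this set also held fibroblast marker RNA, with POSTN at 98.3 to 242 CPM against 0.110 to 0.255 CPM in DMSO, and the 11 markers summing to 129 to 290 CPM against 18.2 to 19.5 CPM, so other cells' RNA moved with this contrast and its part in the result was not tested.

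The late effect minus this acute effect was tested in 1 fit of all 36 libraries, where 12% of 17389 genes were called higher and 11.1% lower. Drug, dose, SHP1705, time and set differ together in it and cannot be told apart. The spread in this fit is shared with the 8 h carfilzomib set, and with only the 4 groups compared in the fit the count of calls rose to 6233. None of the 34 proteasome subunits passed the threshold in the fit of 36 libraries, with PSMC4 at -0.34 ± 0.34 (log2, adjusted p = 0.50), but with only the groups compared 9 were called lower late, PSMC4 among them, and 1 (PSMB6) higher. In the fit of 36 libraries, 10 of 13 HSP40, 13 of 16 HSP90-system, 8 of 11 HSP70 and HSP110, 20 of 24 endoplasmic reticulum and 15 of 18 integrated stress response genes were called lower late (11, 14, 8, 23 and 16 with only the groups compared), with DNAJB1 at -4.02 ± 0.73 and HSPA1A at -5.42 ± 1.05. The late libraries had also formed the fading, lasting and arising classes, so the late part of this difference was set in part by that choice. Of the fading genes, 23 of 41 higher ones were called lower and 44 of 114 lower ones higher. Of the lasting higher genes 13 of 121 were called lower and 1 higher. Arising genes were called toward their late direction in 42 of 81 and 40 of 96 cases.

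By label, carfilzomib against DMSO at 8 h called 23.0% of 15577 genes, and there HSPA1A was lower in libraries labelled carfilzomib, with a log2 value of -4.67 ± 1.28 (adjusted p = 0.040), as was PSMC4 at -1.53 ± 0.39. The late effect minus this labelled effect called 40.1% of 17389 genes. These calls do not hold, since 0 genes were called with the replicate number as a block or without any 1 of 5 of the 6 libraries (DMSO 2, DMSO 3 and each carfilzomib library), and 6719 were called with only the groups compared in the fit. The values for HSPA1A and PSMC4 run opposite to those of carfilzomib at 24 h and of SHP1705 plus MG132 at 8 h, and no direction of a drug at 8 h is drawn from those labels here.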

How the data were processed

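PolyA-selected RNA of MDA-MB-231 cells was sequenced. The authors deposited raw counts per gene in 3 tables of 12 libraries, with no normalization seen in the values. Per the submitters' processing notes, Trimmomatic, FastQC, HISAT2 and featureCounts were used on hg38; of the versions, annotation and strand setting no source used here gives any, so overlapping, antisense and near-identical genes may share reads. Depth was 17800000 to 39300000 counts per library. All columns were used.

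Each table was fitted whole, as 4 labelled groups of 3 libraries, with edgeR 4.0.16 (R 4.3.3): filterByExpr, TMM scaling, the quasi-likelihood test and Benjamini-Hochberg adjustment over all genes tested, with a threshold of 0.05 and a prior count of 0.125. Effects between tables were tested in 1 fit of 36 libraries in 12 groups. Levels are CPM on TMM-scaled library sizes, errors after log2 values are standard errors, and CPM compares a gene between libraries, not genes with each other. The 8 h difference is edgeR's predicted log2 fold change over the 6 libraries, without a test. The 24 h carfilzomib test and the class rule were run on simulated counts with a capped spread between libraries. The other fits were not simulated. Every pair of libraries of a group differed by more than counting noise. The 24 h carfilzomib libraries were less alike than the DMSO ones. Chi-square over its degrees of freedom was 7.27, 9.40 and 16.3 between the former and 3.45, 3.29 and 3.87 between the latter. This ratio also grows with depth, and carfilzomib 2 was the deepest of these libraries.

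The members, the 40 gene lists (777 symbols, 713 kept in both tables) and all rules were chosen with earlier results of these data known, so no list's direction is independent evidence. Named genes are up to 8 per class and direction by effect size, up to 4 per list by p at 24 h, and a set of anchor genes. Those picked by class or list had a mean of at least 5 CPM over the 24 h carfilzomib and DMSO libraries. Their 8 h levels can be lower. CALHM3, LOC105376367, the genes at the 8 h threshold, ALB, POSTN, and PSMB3, PSMB6, PSMC6, PSMD3, PSMD9, PSMD11, PSMD14 and DNAJB9 were named after their values were seen. Promoters and positions come from RefSeq (GRCh38.p14), matched by symbol; the counting annotation may differ. Some named genes are not reported here. Alternatives were relative log expression factors, no low-count filter, DESeq2 1.42.0, fits restricted to the groups compared, a block for replicate number, mean log2 CPM with a prior count of 2, 8 h thresholds of 1.5-fold and 4-fold, and leaving out each library.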

Additional observations from a re-analysis of the deposited data

Results flagged for a closer look

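The carfilzomib effect by label differed between 24 h and 8 h for 6965 genes (adjusted p under 0.05 for the difference of effects in edgeR's fit of 36 libraries), which flagged it as a difference between time points. Among the anchor genes with the largest difference, the 24 h effect minus the 8 h effect was 8.55 for AKR1B10, 7.90 for HSPA6, 5.34 for HSPA1A and 5.18 for HSPA1B on the log2 scale. For HSPA1A the effect was 0.67 at 24 h and -4.67 at 8 h by label, and for AKR1B10 it was 4.41 and -4.13. At 8 h HSPA1A stood at 14559, 23605 and 23242 CPM in the 3 libraries labelled DMSO, and it differed widely between replicates labelled SHP1705 (19856, 705 and 693 CPM) and combination (892, 12020 and 15052 CPM); the part of the labels in these differences was not tested.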

How the results depend on the processing

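With relative log expression factors, DESeq2 and mean log2 levels with a prior count of 2, all counts of calls and classes computed stayed within 1.5 times those given. The replicate numbers do not pair the samples (correlations of deviations -0.106 to 0.0154); with the number as a block, the 24 h carfilzomib effect called 3548 genes, the combination effect 4001, the MG132-set effect 9694, the 2 differences of effects 3142 and 6244, and the labelled 8 h effect 0 (6762 genes at an unadjusted p under 0.05 without the block). With only the groups compared in the fit, the labelled 8 h effect called 6719 genes and the late minus MG132-set effect 6233. The 24 h carfilzomib effect, on which every class rests, called 2810 genes in that setting, against 3472 in the main fit. When 1 library was left out it called 2493 (without DMSO 1 of the 24 h set) to 3756 genes (without carfilzomib 2 of that set). With no filter on low counts, fading genes numbered 123 higher and 203 lower, reversed genes 6 and the 8 h difference 1404. At a 1.5-fold 8 h threshold there were 224 higher and 62 lower lasting genes, 272 higher and 528 lower fading genes, 12 reversed genes and 1955 in the 8 h difference; at 4-fold, 32 and 1, 3 and 2, 0, and 58. The cause was not tested, beyond the wider or narrower thresholds themselves.

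Leaving out 1 library at a time gave 0 to 3115 genes for the labelled 8 h effect, with 0 when DMSO 2, DMSO 3 or any of the 3 carfilzomib libraries was left out. It gave 0 to 5 reversed genes, and 41 to 63 fading higher genes, with 63 without the library labelled SHP1705 2. The other ranges were 106 to 146 fading lower, 107 to 126 lasting higher, 16 to 25 lasting lower, 60 to 99 arising higher and 76 to 138 arising lower genes. The 99 and the 138 both came without carfilzomib 2 of the 24 h set. Membership moved more than these counts: 122 to 138 of the 121 higher and 20 lower lasting genes, 108 to 142 of 155 fading genes and 116 to 160 of 177 arising genes were shared, the lowest without DMSO 1, carfilzomib 2 and carfilzomib 3 of the 24 h set in that order. Of 2497 values recomputed for 227 named genes, 2403 kept direction and side of the threshold, 80 lost the call, 14 gained it and 0 reversed. Low levels limit precision, and 31 of the 114 fading lower genes averaged 5 CPM or more.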
